A study of Homo sapiens with 12 samples.

Results

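The replication-dependent histone genes were examined in 12 mRNA libraries of HEK-293T, a human embryonic kidney cell line that carries SV40 large T antigen. Members were all gene IDs whose symbol begins with HIST1H, HIST2H, HIST3H or HIST4H and that have a transcript model of the protein-coding biotype, which gave 72 genes of 58290 in the tables. They comprise 6 genes for the linker histone H1 and 17 for H2A, 18 for H2B, 16 for H3 and 15 for H4, the core histones. Their 83 protein-coding models held 25444 estimated counts over the 12 libraries, and all 102 of their models held 33636. Unless stated otherwise, a gene's value is the sum over all of its models.

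The libraries form 4 groups of 3. Each library comes from cells with a CIRTS, a fusion of human protein parts that is brought to a chosen RNA by a guide RNA. In the nuclease-SMARCA4 group the effector was the CIRTS-12 nuclease and the guide was directed at SMARCA4, the gene of a chromatin-remodelling ATPase. The nuclease-NT group had the same effector with a non-targeting guide. The YTHDF2-SMARCA4 group had the SMARCA4 guide with CIRTS-3, whose effector is named YTHDF2, a reader of methylated adenosine that is known to promote mRNA decay. The YTHDF2-NT group had CIRTS-3 with the non-targeting guide. All 4 groups thus carry an effector and a guide, and no untreated cells are among them. The study calls the libraries of a group biological replicates. No label gives a culture, a transfection or a batch, so the effector and any batch that went with it cannot be told apart.

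A library held between 9207196 and 18047859 estimated counts in all. The 9 HEK-293T markers examined all averaged at least 1 TPM (a level per transcript length, scaled to a fixed total), and the keratinocyte keratins KRT5 and KRT14 were listed at 0 in every library. Of the other lists, 1 of 5 blood, 1 of 5 fibroblast and 0 of 4 liver markers averaged at least 1 TPM. The library sums were 2.03 to 5.23 TPM for blood and 3.65 to 6.19 TPM for fibroblast markers, beside 612 to 737 TPM for the HEK-293T markers. SMARCA4 itself had a log2 fold change of -0.01 in nuclease-SMARCA4 over nuclease-NT (adjusted p = 0.985) and of -0.22 in YTHDF2-SMARCA4 over YTHDF2-NT (adjusted p = 0.703, edgeR).

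Replication-dependent histone genes supply the histones that package new DNA in S phase. Their mRNAs are unusual in that they normally end without a poly(A) tail: the stem-loop binding protein SLBP holds a short hairpin after the coding sequence, and a complex with the U7 small nuclear RNA cuts just behind it. When that cut is missed, or when a gene also has a downstream poly(A) signal, a longer polyadenylated transcript can form. These libraries were made with an mRNA kit, which captures poly(A) tails, so only the polyadenylated share of histone mRNA was seen.

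The hairpin was far more common in the models of these genes than in those of other genes, though not all members had it. A motif of 16 letters, GGNNCTTN followed directly by TNAGNGCC, was searched on the sense strand of the transcript models and occurred in 48 of the 102 member models (47.1%), against 64 of 197588 models of other genes (0.0324%). The member models with the motif belonged to 33 genes. The hairpins of 6 members are shown because their models hold the hairpin at different distances from the end and because the classes differ in its letters. The hairpin is in capitals, with 5 bases on either side, as DNA read 5′ to 3′ along the transcript from GENCODE 29 (hg38).
HIST1H2AC (chr6:26124669-26124684, plus strand): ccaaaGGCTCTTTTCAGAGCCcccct
HIST3H2A (chr1:228457369-228457384, minus strand): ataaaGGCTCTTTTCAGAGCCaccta
HIST1H2BD (chr6:26158587-26158602, plus strand): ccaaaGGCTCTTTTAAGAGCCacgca
HIST1H3E (chr6:26225596-26225611, plus strand): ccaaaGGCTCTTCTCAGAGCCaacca
HIST1H4H (chr6:26285131-26285146, minus strand): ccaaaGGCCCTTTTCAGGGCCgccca
HIST2H4A (chr1:149833032-149833047, plus strand): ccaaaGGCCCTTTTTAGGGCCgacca

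All 8 H4 genes with a hairpin in a model had one of the last pair of forms, whose stem begins GGCCC. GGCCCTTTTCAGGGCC was found in 5 of them, and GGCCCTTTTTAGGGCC in HIST2H4A, HIST2H4B and HIST1H4I. No H2A, H2B or H3 gene had either form. The form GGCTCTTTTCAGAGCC was found in 6 H2A, 8 H2B and 4 H3 genes, and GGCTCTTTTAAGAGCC in 3 H2B and 2 H3 genes. None of the 6 H1 genes had the motif in a model, and their models are short: HIST1H1C, for example, is given as 642 bases, nearly all of it coding sequence. An absence here says only that the letters are not in these models.

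Most member counts lay on models that run past the hairpin. The 34 models that end more than 100 bases beyond it, from 24 genes, held 63.9% of the member counts, and 19 of the 34 had the poly(A) signal AATAAA in their last 50 bases. The 14 models that end within 100 bases of the hairpin held 7.26%. A further 35 models consist of the coding sequence alone and held 18%, and the remaining 19, which lack the hairpin, held 10.8%. Kallisto divides reads among compatible models, and the tables do not show where along a model the reads fell, so a count on a long model is not a count of reads behind the hairpin.

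**Figure D1:**
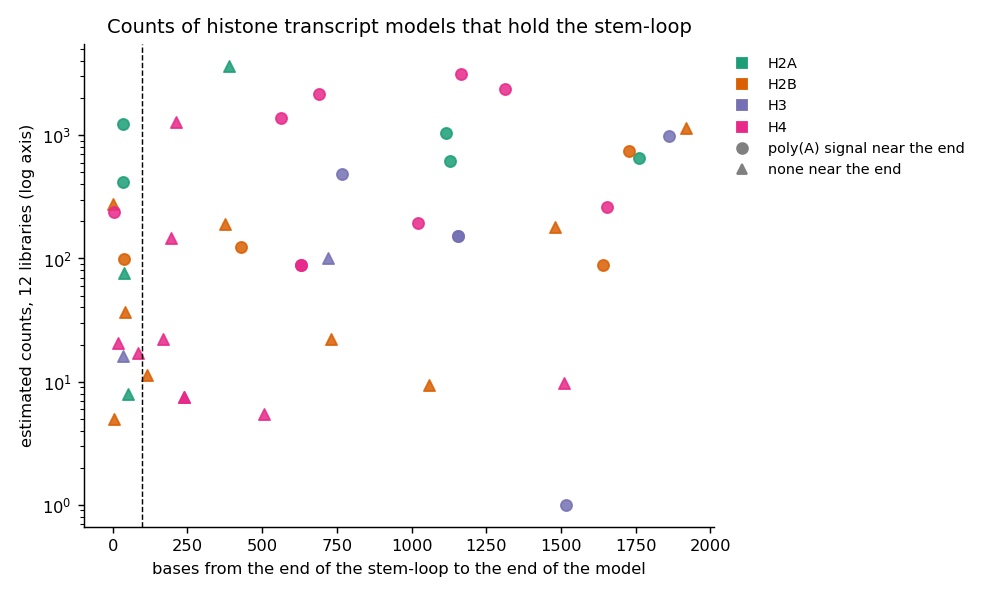
Estimated counts over 12 libraries (y axis, log scale) of the 46 member models that hold the hairpin and have at least 1 count, against the bases from the end of the hairpin to the end of the model (x axis). Each point is a model, coloured by class, circles have a poly(A) signal in the last 50 bases, and 34 of the 46 models lie right of the dashed line at 100 bases.

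The longest tails belonged to single genes of several classes. HIST3H2BB, an H2B gene, has a model that ends 1917 bases after its hairpin and held 1142.4 counts, and the model of HIST1H3E with 980.1 counts ends 1862 bases after it. HIST1H2AG ends 1761 bases and HIST2H2BE 1729 bases after the hairpin, with 659.1 and 747.4 counts. The short model of HIST1H3E, which ends 5 bases after the hairpin, had 0 counts.

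Splicing past the hairpin was also annotated. For HIST1H2BD, 89.4% of the counts were on a model of 2 exons without the hairpin and 10.6% on the model that ends 39 bases after it. For HIST1H2BJ, 74.3% of the counts were on a model of 2 exons with a poly(A) signal and without the hairpin. HIST1H2AC divided its counts over 3 models, with 49.4%, 29.5% and 21.1%. The split was not stable: the model with 29.5% was below 0.001 CPM in 6 of the 12 libraries and the one with 49.4% in 3 others. In HIST1H2BE the model that ends 1 base after the hairpin had 69.2% and the one that ends 430 bases after it 30.8%. HIST1H4H had 57.2% on a model of 3 exons, and a pair of its models, equal in length and in counts, had 19.2% each.

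Models of other biotypes than protein-coding held 24.4% of the member counts, and 84.1% of that was on HIST2H4A and HIST2H4B. HIST2H4A had 67.3% and 29.3% of its counts on spliced models of the nonsense-mediated decay biotype, against 3.15% on its protein-coding model. HIST2H4B had 52.0% on such a model and 47.8% on its protein-coding one. The leading models of HIST1H2BN, HIST2H2BF, HIST1H2BC, HIST1H3J and HIST4H4 had 63.2%, 78.7%, 87.6%, 58.7% and 38.4% of the gene's counts. For the second gene ID that carries the HIST1H3D symbol (ENSG00000282988.1) the leading model had 86.3%.

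Few of these genes made up most of their level in poly(A) RNA. All members together summed to 271, 268 and 321 TPM in the nuclease-SMARCA4 libraries, 379, 420 and 445 TPM in nuclease-NT, 383, 368 and 387 TPM in YTHDF2-SMARCA4 and 256, 310 and 359 TPM in YTHDF2-NT. The 16 replication-independent histone genes summed to a mean of 3930 TPM. The 10 highest members held 76% of the member TPM, and 8 members averaged at least 10 TPM. At the other end, 43 members had under 100 counts in all. No count was assigned to HIST1H1A, HIST1H2AA, HIST1H2BA, HIST1H2BI, HIST3H3, HIST1H3C, HIST1H4F, HIST1H4G or HIST1H4L, which over 160831706 counts allows up to 3 counts each, or 0.0187 CPM; such limits cover counting error only.

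The classes contributed unequally. H2B genes held 33.4% of the member TPM on average over the 12 libraries, H4 genes 24.5%, H2A genes 24.2%, H1 genes 14.6% and H3 genes 3.28%. The ranges over libraries overlapped for H4 (21.1% to 30.1%) and H2A (20.9% to 27.1%), and the range for H3, 2.84% to 3.87%, lay below all others. H3 has nearly as many genes as H2B. On CPM, counts scaled to the library total and not divided by length, the order was H4 with a mean of 73.3, H2A with 52.5, H2B with 48.1, H1 with 23.0 and H3 with 12.8. H2B thus led on the scale per length and not on CPM; its leading gene HIST1H2BK is given by a coding-only model of 381 bases and had 13.4 CPM.

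**Figure D2:**
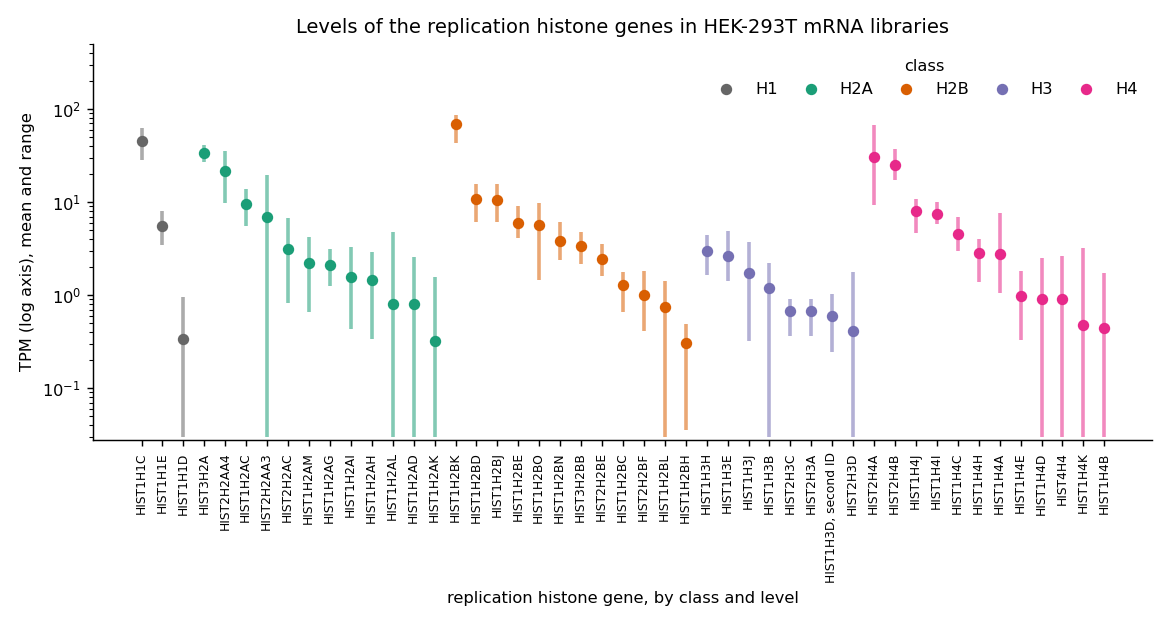
Mean TPM (points) and range over the 12 libraries (bars) of the 47 members with a mean of at least 0.3 TPM, on a log axis, ordered by class and level. Bars that reach the axis include 0. HIST1H2BK is highest at 69.7 TPM, and no H3 gene averages more than 3.0 TPM.

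Single genes led each class. HIST1H2BK, an H2B gene at chr6:27146418-27146798, had the highest level of all members, with a mean of 69.7 TPM and a range of 42.9 to 86.8 TPM. HIST1H2BD and HIST1H2BJ followed in that class with 10.8 and 10.6 TPM, which do not differ beyond their ranges. HIST1H1C, which encodes the linker histone H1.2, had 44.8 TPM and HIST1H1E, the gene of H1.4, 5.60 TPM. HIST1H1D, the gene of H1.3, had 0.342 TPM. The top 3 genes held 99.8% of the H1 level.

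Among H2A genes, HIST3H2A on chromosome 1 led with 33.3 TPM, with 21.5 TPM for HIST2H2AA4 and 9.57 TPM for HIST1H2AC. HIST2H4A and HIST2H4B, near-identical H4 genes on chromosome 1, had 30.8 and 24.8 TPM, and HIST1H4J had 7.98 TPM. In the H3 class HIST1H3H had 3.0 TPM, HIST1H3E 2.62 TPM and HIST1H3J 1.73 TPM, with overlapping ranges.

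Some of these genes cannot be told apart in the tables. HIST2H3A and HIST2H3C had the same model length and the same estimated counts in every library, so each carries an equal part of one pool. HIST2H2AA3 and HIST2H2AA4 traded counts: HIST2H2AA3 was listed at 0.0 CPM in 4 libraries in which HIST2H2AA4 had 7.48 to 12.2 CPM. HIST2H4A and HIST2H4B, and their shared models, behaved in the same way, so sums are given for these pairs below. Of the 32 members that entered the tests, 7 share exon positions with another gene, and the sources used here do not give the strand setting of the counting.

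The first question was what the SMARCA4 guide did to these mRNAs with the nuclease. No member passed the test, although the levels lay lower with the guide in most of them. The test was edgeR's quasi-likelihood test over 16297 genes with Benjamini-Hochberg adjustment and a threshold of 0.05, and 32 members had enough counts to enter it. It called 0 members, and 0.00614% of all genes tested in that comparison. At an unadjusted p below 0.05, 14 of the 32 members were lower and 0 higher, beside 6.23% lower and 4.71% higher among all genes tested. The libraries of the groups did not overlap for 14 members, all lower with the SMARCA4 guide, beside 12.2% of all genes in that direction. The median log2 fold change was -0.52 over the 32 members and within 0.01 of 0 over all genes, and 27 of the 32 were below 0, beside 50.1% of all genes. The 40 members that were not tested held 1.8% of the member counts.

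All classes were lower in sum. Summed H1 counts were 18.1, 16.1 and 21.3 CPM in nuclease-SMARCA4 and 23.9, 29 and 25.2 CPM in nuclease-NT. H2A summed to 44.0, 47.3 and 47.5 CPM in nuclease-SMARCA4 and to 61.0, 59.6 and 64.1 CPM in nuclease-NT. H2B summed to 38.5, 41.4 and 40.2 CPM in nuclease-SMARCA4 and to 49.2, 55.1 and 51.3 CPM in nuclease-NT. In none of these 3 classes did the groups overlap. H3 summed to 9.99, 8.67 and 11 CPM in nuclease-SMARCA4 and to 12.3, 16.1 and 18.7 CPM in nuclease-NT, and H4 to 49.9, 55.8 and 61.2 CPM against 74.4, 94.9 and 103 CPM, again without overlap. The log2 ratios of the mean sums were -0.50 for H1, -0.41 for H2A, -0.37 for H2B, -0.67 for H3 and -0.71 for H4. On TPM only H3 overlapped, at 8.3, 7.6 and 12.4 in nuclease-SMARCA4 and 10.9, 13.3 and 13.8 in nuclease-NT. HIST2H4A plus HIST2H4B averaged 43.7 of 55.6 CPM for H4 in nuclease-SMARCA4 and 73.1 of 90.7 CPM in nuclease-NT. The median log2 fold change of the tested members was -0.19 for the 2 H1 genes and -0.34 for the 7 H4 genes. It was -0.59 for H2A, -0.37 for H2B and -0.77 for H3. The sums are descriptions with no test. The libraries are bulk RNA and show only polyadenylated transcripts. Fewer cells in S phase, less histone mRNA per cell and a smaller polyadenylated share of it cannot be told apart here.

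**Figure D3:**
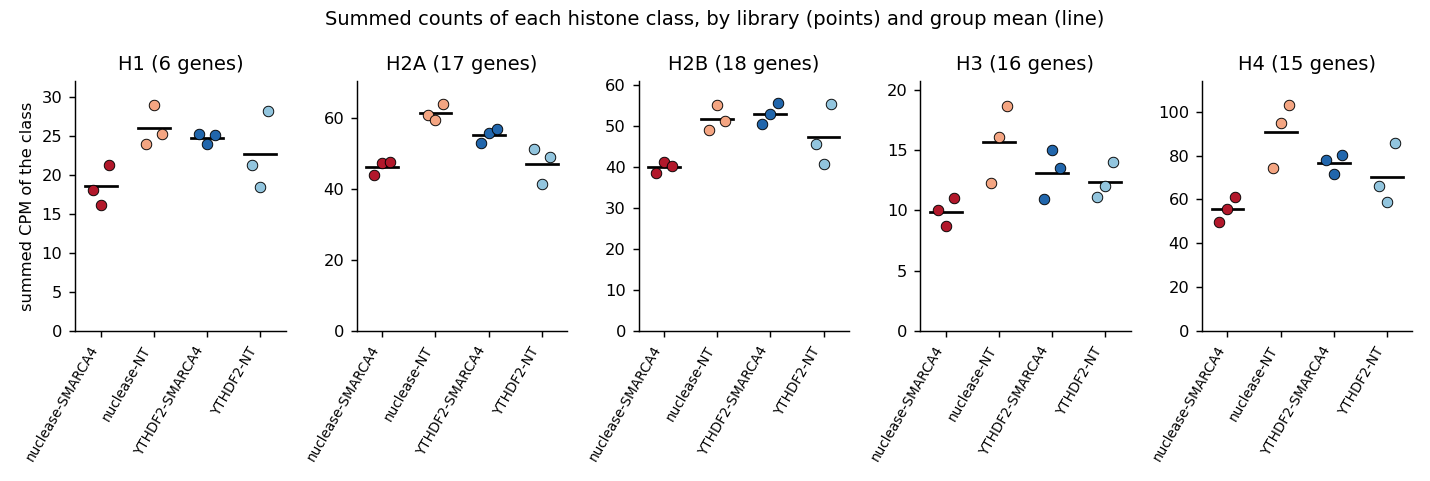
Summed CPM of the members of each class (y axes start at 0) in the 3 libraries of each group (points) with the group mean (line). In every class the 3 nuclease-SMARCA4 libraries lie below the 3 nuclease-NT libraries, for H1 at 16.1 to 21.3 against 23.9 to 29 CPM, and the YTHDF2 groups overlap except for H2A.

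The smallest p-values in this comparison belonged to HIST1H2AC, HIST1H4H and HIST1H2BJ. HIST1H2AC, an H2A gene at chr6:26124145-26139116, had 8.09, 8.24 and 10.1 CPM in nuclease-SMARCA4 and 16.1, 16.3 and 17.6 CPM in nuclease-NT. The groups lay well apart, with a log2 fold change of -0.92 with an SE of 0.166 (n = 3 a group; adjusted p = 0.123, edgeR). HIST1H4H, an H4 gene at chr6:26277609-26285638, had 1.24, 1.48 and 1.87 CPM in nuclease-SMARCA4 and 3.11, 4.42 and 4.62 CPM in nuclease-NT. Its log2 fold change was -1.40 with an SE of 0.269 (adjusted p = 0.142, edgeR), and its 458.0 counts over 12 libraries make it the thinnest of the 3 genes. HIST1H2BJ, an H2B gene at chr6:27125897-27132750, had 3.50, 2.61 and 3.08 CPM in nuclease-SMARCA4 and 6.68, 6.86 and 5.57 CPM in nuclease-NT, a log2 fold change of -1.06 with an SE of 0.212 (adjusted p = 0.142, edgeR). For these 3 genes no library of one group reached the range of the other. On counts rebuilt from TPM scaled by mean length (length-scaled TPM) the log2 fold change was -0.83 for HIST1H4H and -0.53 for HIST1H2BJ.

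HIST1H1C, HIST1H3E, HIST1H3H and the leading H4 pair, taken as 1 gene, had log2 fold changes from -0.59 for HIST1H1C to -0.81 for HIST1H3H. Other leading genes of these classes lay outside that range. HIST1H4J had -0.25 (adjusted p = 0.819, edgeR), and HIST1H1E, described below, had 0.21. HIST1H1C had 14.7, 13.2 and 18.3 CPM in nuclease-SMARCA4 and 20.6, 25.7 and 23.2 CPM in nuclease-NT, a log2 fold change of -0.59 (95% interval -0.97 to -0.21, adjusted p = 0.223, edgeR). HIST1H3E had 4.30, 4.51 and 5.52 CPM in nuclease-SMARCA4 and 5.67, 8.02 and 11 CPM in nuclease-NT, a log2 fold change of -0.77 (-1.30 to -0.25, adjusted p = 0.236, edgeR). Both kept the groups apart. HIST1H3H had 2.41, 1.76 and 2.03 CPM in nuclease-SMARCA4 and 2.95, 3.80 and 4.20 CPM in nuclease-NT, a log2 fold change of -0.81 (-1.44 to -0.19, adjusted p = 0.308, edgeR). HIST2H4A and HIST2H4B together had 37.8, 44.3 and 49.2 CPM in nuclease-SMARCA4 and 60.8, 75.9 and 82.7 CPM in nuclease-NT. Fitted as 1 gene, the pair had a log2 fold change of -0.74 with an SE of 0.161 (adjusted p = 0.153, edgeR).

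The most abundant H2A and H2B genes, HIST3H2A and HIST1H2BK, differed little, with a log2 fold change of -0.13 each. HIST3H2A had 23.8, 24.4 and 21.5 CPM in nuclease-SMARCA4 and 26.4, 24.2 and 26 CPM in nuclease-NT, so the groups overlapped (95% interval of the log2 fold change -0.39 to 0.13). HIST1H2BK had 11.4, 13.1 and 12.4 CPM in nuclease-SMARCA4 and 14.1, 13.1 and 13.1 CPM in nuclease-NT, so close that the gap between the nearest libraries is below the digits given. HIST1H1E, the other H1 gene with enough counts, had 3.28, 2.68 and 2.92 CPM in nuclease-SMARCA4 and 2.88, 2.92 and 1.79 CPM in nuclease-NT, with the mean on the other side of the control. HIST1H2BD had 3.94, 4.86 and 4.62 CPM in nuclease-SMARCA4 and 4.74, 8.02 and 6.2 CPM in nuclease-NT, with 1 library of each group overlapping.

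**Figure D4:**
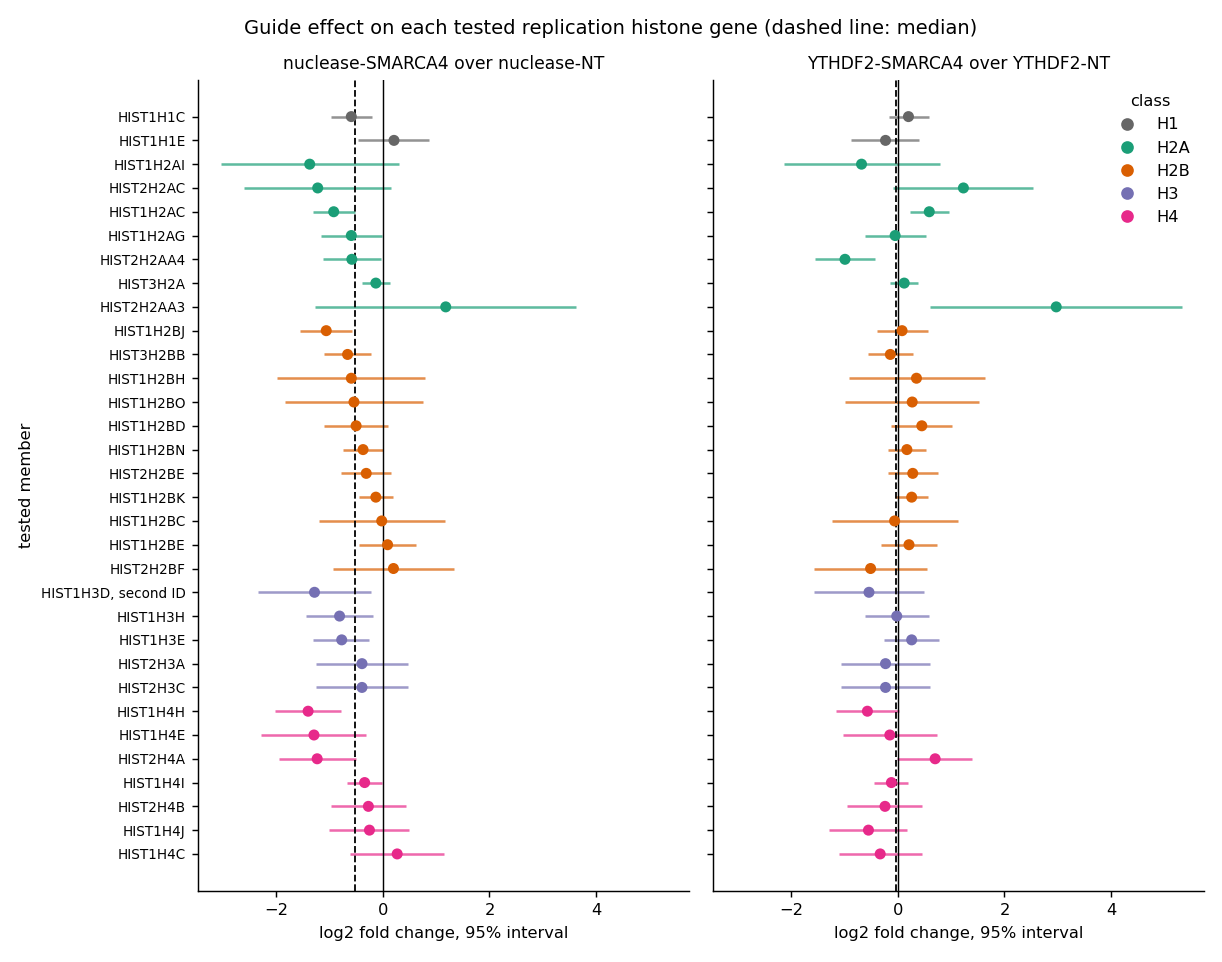
Log2 fold change (points) with its 95% interval (bars) for the 32 tested members, coloured by class, for nuclease-SMARCA4 over nuclease-NT (left) and YTHDF2-SMARCA4 over YTHDF2-NT (right), with the dashed line at the median of the members. The medians are -0.52 on the left and -0.03 on the right, and no member passed the adjusted threshold on either side.

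The call depended on the fit. DESeq2 called 3 members, HIST1H2AC (adjusted p = 0.00121), HIST1H4H (0.00799) and HIST1H2BJ (0.0109), beside 0.859% of all genes. With only the 6 nuclease libraries in the edgeR fit, 6 members were called beside 3.57% of all genes, and limma-voom called 0. The fit over 12 libraries also moved with single libraries of another group: without YTHDF2-NT replicate 1 it called 2 members, beside 0.263% of all genes, and without YTHDF2-NT replicate 2 it called 3, beside 0.161%. With no filter on low counts it called 6, beside 0.963%.

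Levels moved with transcript length to differing degrees in the libraries. Across all tested genes the rank correlation of a library's deviation with gene length ran from -0.26 in nuclease-SMARCA4 replicate 2 to 0.17 in nuclease-NT replicate 2, and from -0.51 to 0.45 among the YTHDF2-NT libraries. With the length trend removed the median of the members was -0.60 and 3 of them were called, the same 3 as by DESeq2, beside 0.245% of all genes.

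Genes that make, move or regulate histones were not called in this comparison either. Of the 29 factors of histone mRNA processing and decay, 0 were called by edgeR and 2 had an unadjusted p below 0.05, with a median log2 fold change of -0.03. ZNF473, a component of the U7 processing complex, averaged 33.8 ± 2.93 CPM in nuclease-SMARCA4 and 45.3 ± 3.15 CPM in nuclease-NT (SD, n = 3 each), a log2 fold change of -0.42 (adjusted p = 0.186, edgeR). SRRT, which links the cap-binding complex to RNA processing, averaged 193 ± 12.6 CPM in nuclease-SMARCA4 and 245 ± 30.3 CPM in nuclease-NT. Of 24 genes of S-phase DNA replication, 0 were called and 4 had an unadjusted p below 0.05, 14 were below 0 and the median was -0.02. The lowest p-values there were those of CDC6, which loads the replicative helicase, with a log2 fold change of -0.27 (adjusted p = 0.211, edgeR), and of the helicase subunit MCM3 with -0.18 (adjusted p = 0.306). These lists do not measure the cell cycle directly, and the part of the cell cycle in the histone values was not tested.

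Of the 13 tested replication-independent histone genes, 4 were below 0, and their median log2 fold change was 0.08. They ranged from -0.98 for H2BFM, an H2B-like gene with 0.610 ± 0.252 CPM in nuclease-SMARCA4 and 1.20 ± 0.494 CPM in nuclease-NT (SD, n = 3 each), to 0.27. The sign of their sum depended on the scale, with a log2 ratio of 0.06 on CPM and -0.06 on TPM. Of them 0 were called by edgeR and 2 had an unadjusted p below 0.05. CENPA, the centromeric H3 variant, had a log2 fold change of 0.27 (adjusted p = 0.424) and H1FX, a linker histone variant, 0.26 (adjusted p = 0.440, edgeR). Of 21 histone chaperones, 0 were called and 2 had an unadjusted p below 0.05, with HIRA, a chaperone of the H3.3 variant, at -0.25 and TONSL, a reader of new H4 behind the fork, at -0.21.

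With the YTHDF2 effector the members lay about evenly on both sides of 0 with the SMARCA4 guide. No member passed edgeR's test, which called 0.0% of all genes; at an unadjusted p below 0.05, 2 of the 32 members were lower and 3 higher, beside 4.39% and 2.44% of all genes. The median log2 fold change was -0.03, with 17 of 32 below 0, beside 51.8% of all genes. The groups did not overlap for 4 members: HIST2H2AA4 and HIST1H4I were lower, beside 4.98% of all genes, and HIST2H2AA3 and HIST2H2AC higher, beside 4.29%. DESeq2 and limma-voom called 0 members.

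The members with the smallest p-values were all H2A genes. HIST2H2AA4 had 6.41, 3.54 and 4.24 CPM in YTHDF2-SMARCA4 and 8.24, 7.48 and 12 CPM in YTHDF2-NT, a log2 fold change of -0.99 with an SE of 0.244 (adjusted p = 0.703, edgeR). HIST2H2AA3, its near-identical copy, had 6.58, 5.63 and 5.89 CPM in YTHDF2-SMARCA4 and 2.32, 0.0 and 0.0 CPM in YTHDF2-NT, opposite in direction. Their sum was 13.0, 9.17 and 10.1 CPM in YTHDF2-SMARCA4 and 10.6, 7.48 and 12 CPM in YTHDF2-NT, with a log2 fold change of 0.09 when they were fitted as 1 gene (adjusted p = 0.897, edgeR). The single copies thus went opposite ways while their sum lay near 0, and the part of read assignment in this was not tested. Without YTHDF2-NT replicate 2, HIST2H2AA4 was the 1 member called by edgeR (adjusted p = 0.025), beside 9.46% of all genes. With no filter on low counts 4 members were called, beside 0.619%.

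HIST1H2AC had 12.3, 18.7 and 16.6 CPM in YTHDF2-SMARCA4 and 10.3, 8.89 and 12.5 CPM in YTHDF2-NT, which overlap by 1 library. Its log2 fold change was 0.59 with an SE of 0.162 (adjusted p = 0.703, edgeR), opposite in sign to that with the nuclease, and on its protein-coding models alone it was -0.07. HIST1H4H had 2.58, 2.43 and 2.31 CPM in YTHDF2-SMARCA4 and 4.32, 2.49 and 4.01 CPM in YTHDF2-NT. HIST1H1C had 22.6, 21.3 and 20.7 CPM in YTHDF2-SMARCA4 and 18.5, 14.1 and 23.3 CPM in YTHDF2-NT. HIST1H2BK had 12.8, 15.8 and 16.7 CPM in YTHDF2-SMARCA4 and 10.5, 12.9 and 14.6 CPM in YTHDF2-NT. The YTHDF2-NT libraries spread widely in these genes.

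In the YTHDF2 groups the class sums depended on the scale, and on CPM the sign was not stable for H3 and H4. The log2 ratio of the summed CPM, YTHDF2-SMARCA4 over YTHDF2-NT, was 0.13 for H1, 0.23 for H2A, 0.16 for H2B, 0.09 for H3 and 0.13 for H4. It was 0.0 for H1 without YTHDF2-NT replicate 2, -0.01 for H3 without YTHDF2-SMARCA4 replicate 2 and -0.07 for H4 on protein-coding models only. H2A summed to 53.0, 55.8 and 56.8 CPM in YTHDF2-SMARCA4 and to 51.2, 41.4 and 48.9 CPM in YTHDF2-NT, without overlap, and the other classes overlapped. H2B, for example, summed to 50.6, 52.9 and 55.7 CPM in YTHDF2-SMARCA4 and to 45.8, 40.9 and 55.4 CPM in YTHDF2-NT. On TPM the log2 ratios were 0.29 for H1, 0.34 for H2A, 0.37 for H2B, 0.29 for H3 and 0.16 for H4. On that scale H2A and H2B did not overlap, while H1, H3 and H4 did. H2B had 124, 136 and 140 TPM in YTHDF2-SMARCA4 and 79.3, 107 and 123 TPM in YTHDF2-NT.

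The companion lists had 0 called genes in YTHDF2-SMARCA4 over YTHDF2-NT too by edgeR. At an unadjusted p below 0.05 there were 1 of 29 processing and decay factors, 0 of 24 S-phase genes, 2 of 13 replication-independent histone genes and 4 of 21 chaperones. NPAT, the activator of histone gene transcription at the histone locus body, averaged 28.1 ± 1.01 CPM in YTHDF2-SMARCA4 and 21.9 ± 6.02 CPM in YTHDF2-NT (SD, n = 3 each; log2 fold change 0.36, adjusted p = 0.703, edgeR). NCBP2, a cap-binding subunit, had a log2 fold change of -0.14, the flap nuclease FEN1 -0.19 and MCM3 -0.12. The H2A.Z genes H2AFZ and H2AFV had -0.25 and -0.15. From the chaperone list, IPO4 and SSRP1 had -0.24 and -0.22, and these genes all had an adjusted p of 0.703 (edgeR).

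The difference between the guide effects, YTHDF2 minus nuclease, was tested in the same fit and no member passed, nor did any other gene (0.0%). At an unadjusted p below 0.05, 9 of the 32 members were higher and 0 lower, beside 5.12% and 5.93% of all genes, and the median over the members was 0.57, with 6 of 32 below 0, beside 50.6% of all genes. HIST1H2AC had the smallest p of the members, with a difference of 1.51 ± 0.232 on the log2 scale (SE; adjusted p = 0.0985, edgeR). HIST2H4A followed with 1.93 (adjusted p = 0.239) and HIST1H2BJ with 1.15 (adjusted p = 0.297). The pair HIST2H4A and HIST2H4B fitted as 1 gene had 0.98 (adjusted p = 0.241, edgeR), and HIST2H4A on its protein-coding model alone had 5.06. That model held only 146.7 counts over the 12 libraries, 3.15% of the gene's, and was listed at 0.0, 0.151 and 0.0 CPM in YTHDF2-NT. HIST1H2BJ had 0.67 on length-scaled TPM. DESeq2 called HIST1H2AC alone (adjusted p = 4.64e-05), beside 0.337% of all genes, and limma-voom called 0. Without YTHDF2-NT replicate 2, 3 members were called, HIST1H2AC, HIST2H4A and HIST1H2BJ, beside 8.62% of all genes. With the length trend removed HIST1H2AC was called, beside 0.0184%, and with no filter on low counts 6 members were, beside 1.43%.

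**Figure D5:**
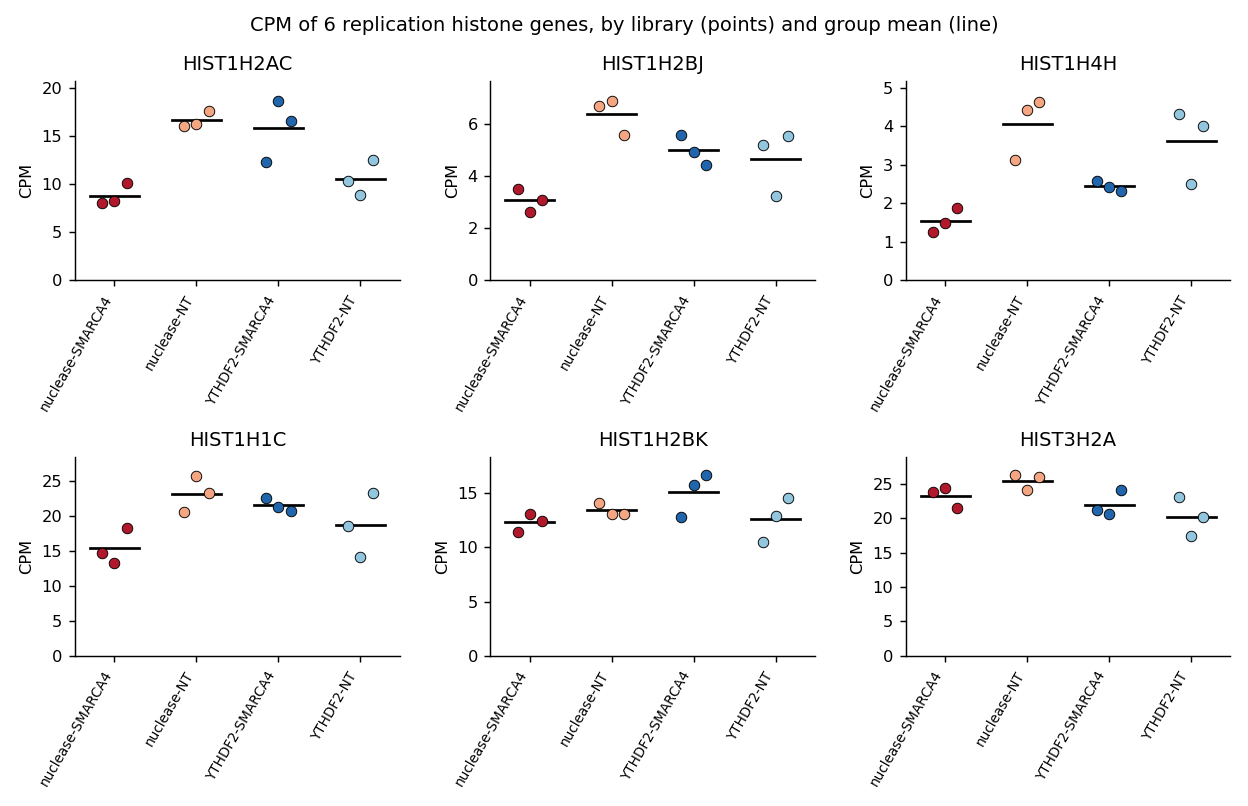
CPM (y axes start at 0) of 6 members in the 3 libraries of each group (points) with the group mean (line). HIST1H2AC, HIST1H2BJ and HIST1H4H are lower in nuclease-SMARCA4 than in nuclease-NT without overlap, at 8.09 to 10.1 against 16.1 to 17.6 CPM for HIST1H2AC, while the YTHDF2 groups overlap for all 3.

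The effectors were also compared directly, at each guide. With the SMARCA4 guide the members were mostly higher with YTHDF2, and with the non-targeting guide they leaned lower. In YTHDF2-SMARCA4 over nuclease-SMARCA4, 0 members were called by edgeR, beside 0.00614% of all genes. At an unadjusted p below 0.05, 11 were higher and 1 lower, beside 5.93% and 5.52% of all genes. The groups did not overlap for 13 members, all higher with YTHDF2, beside 13.4% of all genes, the median log2 fold change was 0.37, and 4 of 32 were below 0, beside 49.8% of all genes. HIST1H2AC had the smallest p, with a log2 fold change of 0.86 (adjusted p = 0.173), then HIST2H4A with 1.04 (adjusted p = 0.285) and HIST1H2BJ with 0.69 (adjusted p = 0.302, edgeR). On length-scaled TPM HIST1H2BJ had 0.35, and on its protein-coding models HIST1H2AC had 0.39. On its protein-coding model alone HIST2H4A had -0.31, from 2.21, 0.0 and 0.0 CPM in YTHDF2-SMARCA4 and 2.4, 0.0 and 0.0 CPM in nuclease-SMARCA4. As a pair with HIST2H4B it had 0.49 (adjusted p = 0.320, edgeR). DESeq2 called HIST1H2AC alone, beside 0.626% of all genes, and limma-voom 0. HIST1H2AC was also the 1 member called without YTHDF2-NT replicate 1 (beside 0.419%), without YTHDF2-NT replicate 2 (0.125%) and with the length trend removed (0.239%). With only the compared libraries 5 members were called, beside 4.25%, and with no filter 3, beside 0.856%.

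In YTHDF2-NT over nuclease-NT, 0 members were called by edgeR, beside 0.0491% of all genes. At an unadjusted p below 0.05, 5 were lower and 1 higher, beside 4.39% and 6.50% of all genes, the median was -0.17, and 20 of 32 were below 0, beside 48.7% of all genes. The groups did not overlap for 4 lower members, beside 5.96% of all genes, and for 1 higher member, beside 6.86%. HIST1H2AC had a log2 fold change of -0.65 (adjusted p = 0.260), HIST3H2A -0.33 (adjusted p = 0.322) and HIST2H4A -0.89 (adjusted p = 0.326, edgeR). HIST2H4A had -5.37 on its protein-coding model alone, and the pair with HIST2H4B fitted as 1 gene had -0.49 (adjusted p = 0.309, edgeR). That model had few counts, at 0.0, 0.151 and 0.0 CPM in YTHDF2-NT and 2.16, 0.571 and 5.17 CPM in nuclease-NT. HIST3H2A had 23.2, 17.4 and 20.2 CPM in YTHDF2-NT and 26.4, 24.2 and 26 CPM in nuclease-NT. The higher member was HIST1H4C, with 2.0, 1.58 and 1.15 CPM in YTHDF2-NT and 0.855, 0.679 and 0.841 CPM in nuclease-NT. DESeq2 called HIST1H2AC (adjusted p = 0.0496), beside 0.663% of all genes, and limma-voom called 0. With the length trend removed HIST3H2A was called, beside 0.104%, and with no filter 2 members, beside 1.04%. Each of these comparisons shares its libraries with a comparison of guides, so they are not separate evidence.

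All kinds of model were lower in sum in nuclease-SMARCA4. Models past the hairpin summed to 104, 110 and 112 CPM in nuclease-SMARCA4 and to 141, 171 and 176 CPM in nuclease-NT. Coding-only models summed to 29.5, 29.6 and 36.3 CPM in nuclease-SMARCA4 and to 38.8, 42.7 and 42.6 CPM in nuclease-NT. Models that end at the hairpin summed to 12.6, 12.9 and 14.8 CPM in nuclease-SMARCA4 and to 15.1, 16.5 and 17.1 CPM in nuclease-NT, and the other models without it to 14.5, 16.6 and 17.8 against 25.4, 24.6 and 26.5 CPM. In all 4 kinds the groups did not overlap. Few genes held much of these sums. HIST2H4A plus HIST2H4B averaged 43.7 CPM in nuclease-SMARCA4 and 73.1 CPM in nuclease-NT, of 109 and 163 CPM on models past the hairpin. HIST1H1C averaged 15.4 and 23.2 CPM, of 31.8 and 41.4 CPM on coding-only models. HIST2H2AA3 plus HIST2H2AA4 averaged 9.14 and 11.4 CPM, of 13.4 and 16.2 CPM on models that end at the hairpin. In the YTHDF2 groups the models past the hairpin summed to 137, 140 and 146 CPM in YTHDF2-SMARCA4 and to 120, 110 and 143 CPM in YTHDF2-NT, which overlap.

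The genomic clusters HIST1, HIST2 and HIST3 were lower too. HIST4, with 1 gene and few counts, overlapped, at 0.583, 0.0 and 0.325 CPM in nuclease-SMARCA4 and 0.155, 0.34 and 1.16 CPM in nuclease-NT. The 56 genes of HIST1 on chromosome 6 summed to 77.1, 78.7 and 88.4 CPM in nuclease-SMARCA4 and to 107, 125 and 122 CPM in nuclease-NT. The 12 genes of HIST2 on chromosome 1 summed to 54.3, 61.1 and 65.5 CPM in nuclease-SMARCA4 and to 79.6, 95.9 and 106 CPM in nuclease-NT. Of the HIST2 means, 60.3 and 93.9 CPM, HIST2H4A plus HIST2H4B held 43.7 and 73.1 CPM. The 3 genes of HIST3, also on chromosome 1, summed to 28.4, 29.4 and 26.9 CPM in nuclease-SMARCA4 and to 34.3, 33.4 and 32.4 CPM in nuclease-NT. The log2 ratios of the mean sums were -0.54, -0.64 and -0.24, and none of the 3 clusters overlapped between the groups.

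Many H2A and H2B genes stand head to head and share the stretch between their starts. Within 1000 bases, 11 such divergent pairs were found, each of 1 H2A and 1 H2B gene, with 218 to 330 bases between the annotated starts. The partners differed in their levels, and the ratio depended on the scale. HIST1H2BK had 69.7 TPM and its partner HIST1H2AH 1.46 TPM, and 13.4 and 0.289 CPM. HIST3H2A had 33.3 TPM and HIST3H2BB 3.38 TPM, and 22.8 and 7.08 CPM. HIST1H2AC had 9.57 TPM and HIST1H2BC 1.28 TPM, and 13.0 and 0.579 CPM. In these 3 pairs the same partner was higher on both scales. HIST2H2BE and HIST2H2AC had 2.45 and 3.10 TPM but 4.68 and 0.622 CPM, with annotated models of 2194 and 390 bases. HIST1H2BJ and HIST1H2AG had 10.6 and 2.11 TPM but 4.76 and 4.14 CPM.

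RefSeq promoters (GRCh38.p14, 250 bases before to 50 after the start) were matched for 61 members, by Ensembl gene ID and the current symbol it is listed with. The CCAAT motif was present on either strand in 83.6% of them, against 34.5% of 35051 promoters of other genes, the TATAA motif in 91.8% against 20.3%, and TTTGCAT, the core of the octamer bound by POU factors, in 42.6% against 4.39%. A TATAA match on one strand can overlap one on the other, and a match is a description and not a site in use. The windows of divergent partners can overlap, as for HIST3H2A with HIST3H2BB and HIST2H2BE with HIST2H2AC. The same stretch then counts for both partners, so the 61 promoters are not 61 separate stretches of DNA. The 250 bases before the start are shown for 3 members: the leading gene of all, the gene with the smallest p, and the leading H4 gene, which has none of the motifs. Matches are in capitals, and those read on the other strand appear as the reverse complement of the motif.
HIST1H2BK (chr6:27146859-27147108, minus strand): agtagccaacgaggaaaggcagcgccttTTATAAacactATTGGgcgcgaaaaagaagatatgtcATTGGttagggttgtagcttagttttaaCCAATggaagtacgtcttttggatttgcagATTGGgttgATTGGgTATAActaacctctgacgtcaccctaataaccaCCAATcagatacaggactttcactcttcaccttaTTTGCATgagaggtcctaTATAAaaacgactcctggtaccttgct
HIST1H2AC (chr6:26123922-26124171, plus strand): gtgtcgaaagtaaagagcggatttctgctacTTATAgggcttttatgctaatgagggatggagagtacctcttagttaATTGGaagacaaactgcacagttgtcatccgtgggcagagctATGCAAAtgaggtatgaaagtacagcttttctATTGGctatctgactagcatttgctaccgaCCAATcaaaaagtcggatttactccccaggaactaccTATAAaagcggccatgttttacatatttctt
HIST2H4A (chr1:149832407-149832656, plus strand): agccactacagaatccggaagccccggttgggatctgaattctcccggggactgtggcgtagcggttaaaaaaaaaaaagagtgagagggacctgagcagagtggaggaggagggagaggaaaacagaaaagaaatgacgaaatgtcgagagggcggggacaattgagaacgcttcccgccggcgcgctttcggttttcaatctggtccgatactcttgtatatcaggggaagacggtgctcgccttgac

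The motifs were found in members that entered the tests and in those that did not. CCAAT was found in 82.1% of the 28 tested members with a matched promoter and in 84.8% of the 33 untested ones, TATAA in 82.1% and 100% and TTTGCAT in 39.3% and 45.5%.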

How the data were processed

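Per the labels' protocols, RNA was extracted with RNeasy columns and made into libraries with KAPA's mRNA HyperPrep chemistry. The authors deposited 1 table per library with kallisto's estimated counts and TPM for 200403 targets; the submitters' processing notes name kallisto, sleuth and hg38, without versions. TPM values in the deposited tables are counts divided by effective length and keep no depth.

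Estimated counts were summed over the models of each gene ID and rounded. Genes were tested with edgeR 4.0.16 in R 4.3.3 (quasi-likelihood test, TMM, filterByExpr, 1 mean per group, 12 libraries, 8 residual degrees of freedom, biological coefficient of variation 11.4%), two-sided, called at an adjusted p below 0.05 over all 16297 genes. The script was tested on simulated data. DESeq2 1.42.0 and limma 3.58.1 were alternatives. CPM uses TMM-adjusted totals. Error is SD or SE, n = 3. Intervals are 95%, built from the SE with a t distribution on the 8 residual degrees of freedom. They can include 0 where the unadjusted p of the edgeR test is below 0.05. P-values measure the spread between these libraries.

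Member models matched GENCODE 29 by ID and length; 71 of 72 gene IDs had the same version. Hairpins were searched in those transcripts. Named genes were the 3 highest of each class, the 3 smallest p per comparison, model shares where a second model held at least 10%, indistinguishable copies, and 2 per companion list and guide comparison; a few others are given as examples chosen after their values were seen. The members and lists were chosen with earlier results of these data known.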

Additional observations from a re-analysis of the deposited data

Results flagged for a closer look

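The summed counts of the members went opposite ways with the SMARCA4 guide in the nuclease and YTHDF2 groups: every nuclease-SMARCA4 library lay below the nuclease-NT mean and every YTHDF2-SMARCA4 library above the YTHDF2-NT mean. The YTHDF2 minus nuclease difference of the log2 ratios was 0.69 over all members, 0.63 for H1, 0.64 for H2A, 0.54 for H2B and 0.83 for H4, and H3 did not meet this criterion. On CPM the YTHDF2 groups overlapped over all members, at 218, 219 and 231 in YTHDF2-SMARCA4 and 195, 171 and 232 in YTHDF2-NT. On TPM they did not overlap, at 383, 368 and 387 in YTHDF2-SMARCA4 and 256, 310 and 359 in YTHDF2-NT. The median log2 fold change of the tested members in YTHDF2-SMARCA4 over YTHDF2-NT was -0.03, with 17 of 32 below 0. The difference of these sums was not tested; that of the single genes was, and no member passed in edgeR.

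Outside the members, 18 other transcript models of the histone clusters, all of pseudogenes, held 227 estimated counts in all, with 6 to 41 per library and at least 1 count on 7 of them, more than the 3 counts that a count of 0 allows. Most were on HIST2H2BA (102.7), HIST2H2BC (84.4) and HIST1H3PS1 (26.8). Reads shared with member genes were not tested.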

How the results depend on the processing

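Over the 5 comparisons, 98 alternative counts of called members were 0, as reported, and 21 were not. For nuclease-SMARCA4 over nuclease-NT the count was 3 with DESeq2, 6 without a filter on low counts, 6 with only the compared groups and 3 with the length trend removed. For YTHDF2-SMARCA4 over YTHDF2-NT it was 4 without the filter. For the difference of the guide effects it was 1 with DESeq2, 6 without the filter and 1 with the length trend removed. For YTHDF2-NT over nuclease-NT it was 1, 2 and 1 under those settings, and for YTHDF2-SMARCA4 over nuclease-SMARCA4 1, 3 and 1, and 5 with only the compared groups. The cause was not tested. Leaving out 1 library in turn gave 0 to 3 calls for the nuclease guide comparison, 0 to 1 for the YTHDF2 one, 0 to 3 for their difference, 0 to 0 for YTHDF2-NT over nuclease-NT and 0 to 1 for YTHDF2-SMARCA4 over nuclease-SMARCA4; all non-zero counts came without YTHDF2-NT replicate 1 or 2.

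Replicate numbers did not pair the libraries (correlations of deviations -0.198 to 0.0553), and with the replicate block the count of called members was 0 in all 5 comparisons. Summing near-identical copies, added after seeing the data, also left 0. The member median ranged from -0.60 to -0.39 for the nuclease guide, -0.11 to 0.10 for the YTHDF2 guide and 0.44 to 0.67 for their difference over the alternatives. With protein-coding models only, HIST1H2AC turned to -0.07 for the YTHDF2 guide and HIST2H4A to -0.31 for YTHDF2-SMARCA4 over nuclease-SMARCA4. The protein-coding model of HIST2H4A held 3.15% of its counts. The summed counts of all members ranged from -0.60 to -0.48 for the nuclease guide and from 0.06 to 0.30 for the YTHDF2 guide. Members with under 100 counts limit what depth can show.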
